A study of Mus musculus with 6 samples.

Results

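Tm9sf1 and Atg3, 2 genes linked to autophagy, were read in mouse endometrium around implantation, in a dehydroepiandrosterone (DHEA) model of polycystic ovary syndrome. Each gene had 1 probe on the array, so the account rests on 2 of 14330 probes that were not array controls, and on 2 of the 44 genes that the array names by an mRNA accession. The Tm9sf1 probe is A_51_P455410, paired in the files with the mRNA accession NM_028780, and the Atg3 probe is A_51_P143855, paired with NM_026402. The genes were selected on the DHEA minus control differences and the brightness of such probes on these same arrays, so both are given as a description with no test.

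The study compared circular RNAs of the receptive endometrium between DHEA-treated and control mice. Female mice, labelled as 4 weeks old, were injected under the skin for 20 days, either with DHEA, an androgen precursor, or with soybean oil alone. The daily dose of DHEA was 6 mg for every 100 g, dissolved in the oil, and each injection had a volume of 0.2 mL in both groups. They were mated from day 21, and on day 4 of pregnancy the endometrium was squeezed out after embryos were removed. There were 3 arrays per group, each of 1 pool of endometrium from 3 mice, so the spread between mice within a pool is not measured. The labels give no strain and no genetic change, and they name 12 mice per group without stating that pools shared no mice. Any spread between arrays may therefore be partly technical.

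Autophagy encloses cell material in a double membrane, the autophagosome, and delivers it to the lysosome for breakdown. Atg3 is the E2-like enzyme that passes LC3 and its relatives to the lipid phosphatidylethanolamine, the step that anchors them in the growing membrane. Tm9sf1 belongs to the transmembrane 9 superfamily, proteins with several membrane spans that sit on endosomes and the Golgi, and it has been linked to the induction of autophagy. Both genes act in many cell types, and the endometrium is a mixture of epithelium, stroma, vessels and immune cells. In such a bulk sample, a change in the number of cells of a type and a change in RNA per cell cannot be told apart.

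The RNA had been digested with RNase R, an exonuclease that removes linear RNA, before labelling. The 50 probes listed with an mRNA accession therefore read what was left of linear transcripts, or any circular RNA that holds the probed stretch, and these cannot be told apart here. The array held few genes against which to read the 2 probes. Of 47 autophagy, lysosome and TM9 family genes listed by role, the mRNA-accession probes measured only Atg3, as 1 of 10 conjugation genes, and Tm9sf1, as 1 of 4 TM9 family genes. No probe among them reached the initiation complex, the phosphatidylinositol 3-kinase complex, vesicle supply, the ATG8 proteins, the receptors or the lysosome. Of 36 cell type markers, only Mzb1, of antibody-secreting cells, was measured, so the tissue label could not be checked against epithelial or stromal markers.

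Some features of the arrays bear on both genes. Over the circRNA probes, DHEA 3 correlated more closely with control 2 (r = 0.990) than with DHEA 1 (r = 0.967) or DHEA 2 (r = 0.983). The 75th percentile of circRNA intensity, to which every array was scaled, averaged 277 ± 15.5 over the DHEA arrays and 259 ± 40.4 over the controls (SD, n = 3 each; two-sided exact permutation p = 0.6, where 0.1 is the lowest this design allows). No array duplicated another.

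The Tm9sf1 probe was brighter on every DHEA array than on any control array. Its intensity, averaged over 10 replicate spots per array (9 on control 2, after 1 outlier spot was left out), was 616 on DHEA 1, 617 on DHEA 2 and 527 on DHEA 3. It was 307 on control 1, 403 on control 2 and 478 on control 3. These values are before any scaling between arrays, and the groups stood apart, with control 3 the nearest to the DHEA arrays and control 1 the farthest. Unscaled, the groups did not overlap, higher in DHEA, for 12 of the 50 mRNA-accession probes, Tm9sf1 among them.

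After scaling, the level is given as log2 intensity relative to the 75th percentile of the circRNA probes of the same array. The Tm9sf1 level was 1.07 on DHEA 1, 1.24 on DHEA 2 and 0.93 on DHEA 3, against 0.49 on control 1, 0.65 on control 2 and 0.67 on control 3. All 3 DHEA arrays lay above all 3 control arrays, and the gap between the lowest DHEA and the highest control array was 0.26, narrower than the range of the DHEA arrays and wider than that of the controls. The group means were 1.08 ± 0.15 and 0.60 ± 0.10 (SD, n = 3 each), a log2 difference of 0.48 (SE 0.14, from a limma fit over the 50 mRNA-accession probes), or 1.39-fold.

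The replicate spots show how finely a single array was read. The SD over the spots of the Tm9sf1 probe within an array was between 0.015 and 0.048 on the log2 scale, with a median of 0.025. The SD between arrays of a group, 0.13, was 5.25 times that median, so most of the spread lay between pools or arrays and not between spots. The dimmest Tm9sf1 spot of any DHEA array, at a relative level of 0.90 on DHEA 3, lay above the brightest of any control array, at 0.76 on control 3. Control 2 and control 3 differed by less than the spot spread of control 3. Spots of 1 array share their RNA and are not replicates of the treatment.

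The Atg3 probe did not separate the groups. Its intensity was 63.5 on DHEA 1, 52.9 on DHEA 2 and 50.2 on DHEA 3, and 43.0 on control 1, 44.5 on control 2 and 60.5 on control 3 (9 spots kept there and 10 elsewhere). Control 3 was brighter than 2 of the 3 DHEA arrays. Unscaled, the probe was brightest on DHEA 1 and control 3, the arrays with the highest circRNA intensity, and dimmest on control 1, the array with the lowest.

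Scaled, the Atg3 level was −2.20, −2.31 and −2.46 on DHEA 1 to 3, and −2.35, −2.53 and −2.31 on control 1 to 3. The groups overlapped, and DHEA 3 lay below both control 1 and control 3. The means were −2.32 ± 0.13 with DHEA and −2.40 ± 0.12 without (SD, n = 3 each). The log2 difference of 0.075 was smaller than its SE of 0.14 and than the SD between arrays of a group, 0.12. Its spots were less even than those of Tm9sf1, with a median SD of 0.074 and a highest of 0.11, and spots of DHEA and control arrays were interleaved.

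**Figure D1:**
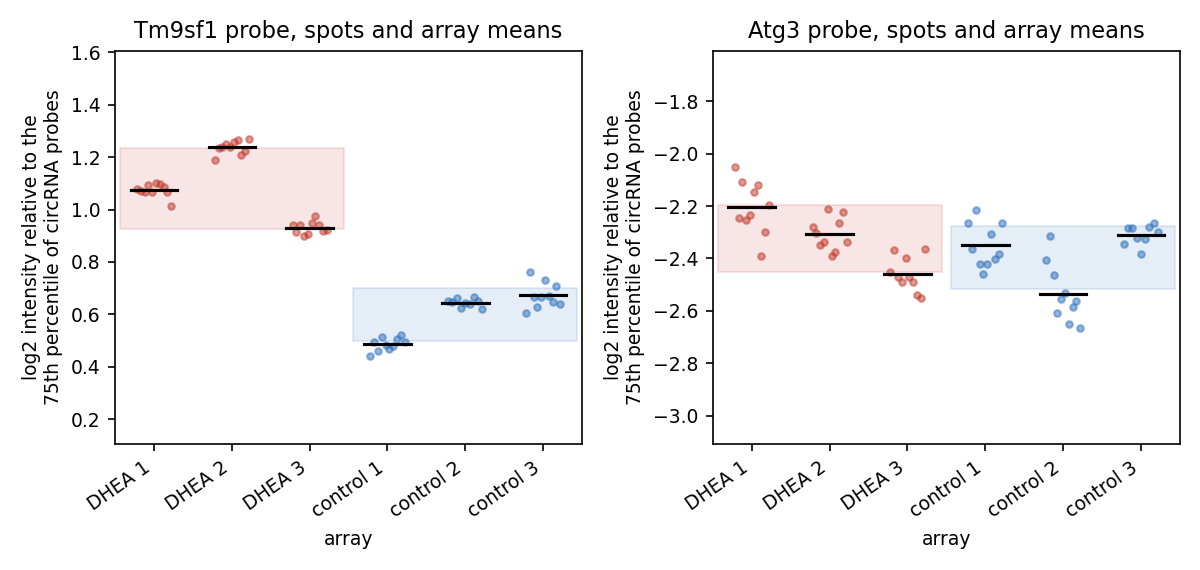
Log2 intensity of each replicate spot (points) and the array mean (black bar) for the Tm9sf1 and the Atg3 probe, relative to the 75th percentile of circRNA probes of the same array, with bands for the group mean ± SD over 3 arrays (DHEA red, control blue). Both panels span the same height. The Tm9sf1 spots of DHEA arrays all lie above those of control arrays (lowest 0.90, highest 0.76), and the Atg3 spots overlap.

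The ratio of both probes within an array needs no scaling between arrays. Log2 of Tm9sf1 over Atg3 intensity was 3.28, 3.54 and 3.39 on DHEA 1 to 3 and 2.84, 3.18 and 2.98 on control 1 to 3. The DHEA arrays again lay above the control arrays, the nearest being DHEA 1 and control 2. The Tm9sf1 over Atg3 means were 3.40 ± 0.13 and 3.00 ± 0.17 (SD, n = 3 each), a difference of 0.40. That difference is the Tm9sf1 difference minus the Atg3 difference and adds no support to either. The Atg3 probe was dimmer than the brightest negative-named probe on every array, so the ratio is read against a probe within the range of the negatives. It is no ratio of transcript amounts, since probes differ in how strongly they bind.

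Also on the array were 15 probes named as negatives, each printed 10 times, against which the signal of both genes can be read. The flag for a signal well above local background was set on all 10 spots of both probes on each array, but it was also set on 94.3% of the spots of the negative-named probes, so it says little about specific signal. The Tm9sf1 probe was brighter than all 15 negative-named probes on every array. It exceeded their mean by 4.56, 4.82 and 4.60 on the log2 scale on DHEA 1 to 3 and by 3.99, 4.18 and 4.26 on control 1 to 3. The groups did not overlap in this measure, with means of 4.66 ± 0.14 and 4.14 ± 0.14 (SD, n = 3 each). The same held, higher in DHEA, for 17 of the 50 mRNA-accession probes, Tm9sf1 among them.

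Set against the brightest negative-named probe alone, the Tm9sf1 groups did overlap. The excess was 2.05, 2.29 and 2.29 on DHEA 1 to 3, and 1.76, 2.15 and 1.80 on control 1 to 3. Control 2 exceeded DHEA 1 in this measure. That brightest negative-named probe was itself higher in DHEA by 0.17, with overlapping groups, and it is a single probe with no stated target.

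The Atg3 probe lay within the range of the negative-named probes. It was brighter than 13 of the 15 on DHEA 1, 11 on control 1 and 12 on each of the other arrays. It exceeded their mean by 1.28, 1.28 and 1.21 on DHEA 1 to 3 and by 1.15, 1.00 and 1.28 on control 1 to 3. Its difference from the brightest of them was −1.23, −1.26 and −1.10 on DHEA 1 to 3 and −1.07, −1.03 and −1.18 on control 1 to 3. Neither measure separated the groups. How much of the Atg3 signal came from Atg3 RNA cannot be read from an intensity that probes with no named target also reach.

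**Figure D2:**
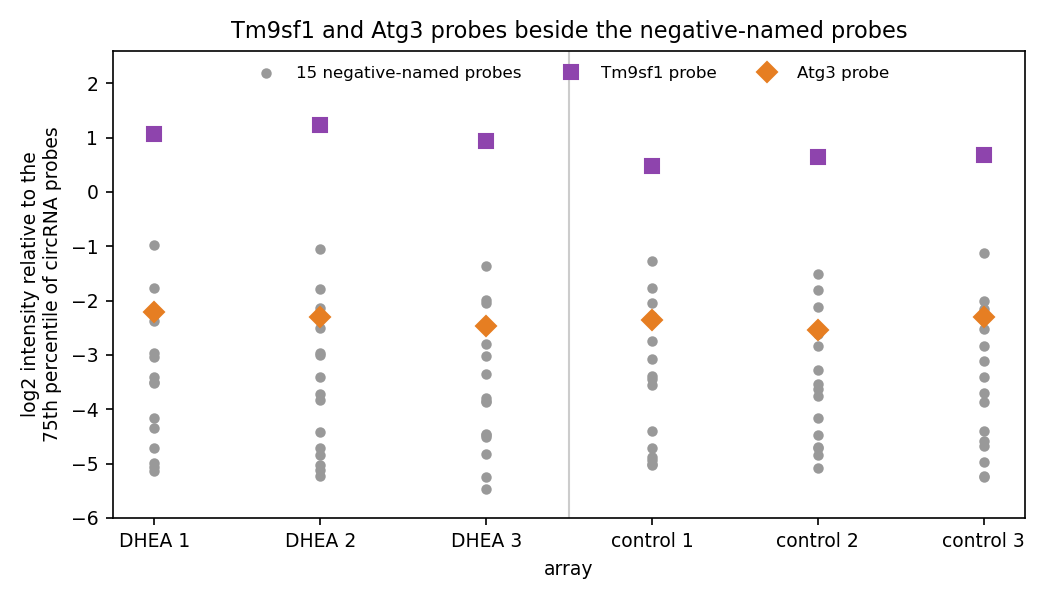
Log2 intensity relative to the 75th percentile of circRNA probes for the Tm9sf1 probe (squares), the Atg3 probe (diamonds) and the 15 negative-named probes (grey points) on each array, with DHEA arrays left of the line and control arrays right of it. Tm9sf1 lies above all the negative-named probes on every array, and Atg3 lies below the brightest of them on every array.

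The mean of the negative-named probes, which was not used to choose the genes but shares arrays and scaling with them, stood at −3.58 ± 0.09 with DHEA and −3.54 ± 0.04 without (SD, n = 3 each), a difference of −0.035 (two-sided exact permutation p = 0.7) whose sign turned with normexp background correction of median intensities and without DHEA 3. The median local background of a spot was 18.3 in both groups. Of single negative-named probes, 1 of the 15 negative-named probes (6.67%) had groups that did not overlap, higher in DHEA, with a log2 difference of 0.21.

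Against the other mRNA-accession probes, the Tm9sf1 separation was one of many. The groups did not overlap, higher in DHEA, for 15 of the 50 probes (30.0%), Tm9sf1 among them, and for 0 lower in DHEA. Of the 50, 31 were higher in DHEA, with a median log2 difference of 0.093. Tm9sf1 had the 6th largest difference and Atg3 the 28th, next to that median. By limma with Benjamini-Hochberg adjustment, 0 of the 50 (0%) were called at an adjusted p of 0.05, and the unadjusted p was under 0.05 for 14 (28.0%). That unadjusted count varied with the setting. It was 17 relative to the mean of the negative-named probes and 7 relative to the median of the mRNA-accession probes. With slide column as a block in the fit, it was 3. The adjusted count was 1 without control 1, 4 without control 2 and 1 without control 3. Since this contrast chose the genes, nothing is read from their place in these counts.

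**Figure D3:**
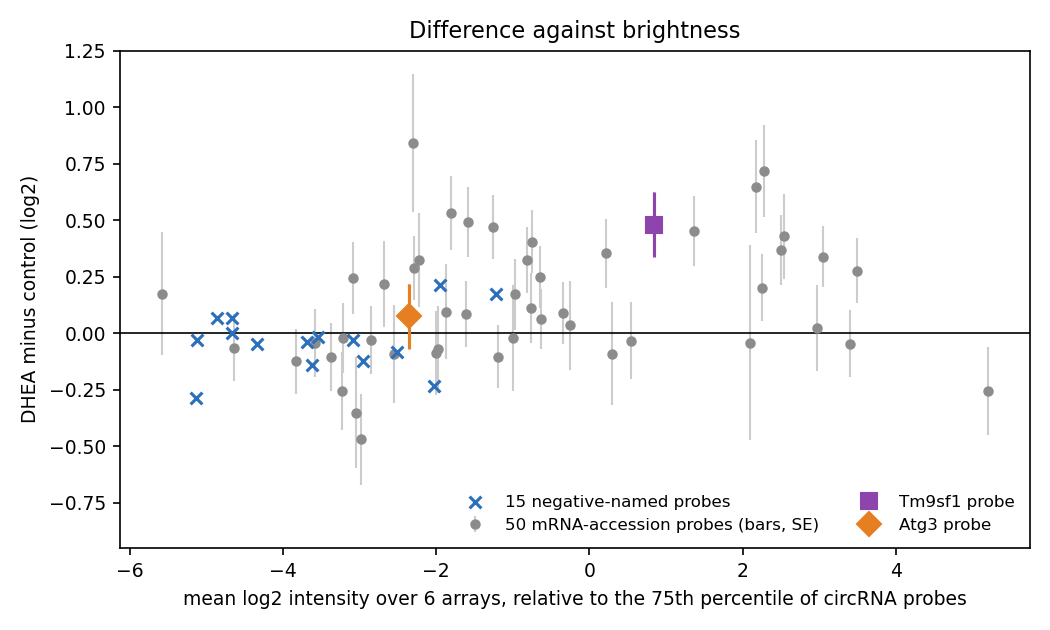
DHEA minus control difference in log2 level against the mean level over 6 arrays for the 50 mRNA-accession probes (points with SE bars), with the Tm9sf1 probe (square) and the Atg3 probe (diamond) marked and the 15 negative-named probes as crosses. Tm9sf1 (0.48) lies in the upper part of the cloud among several probes with like differences, and Atg3 (0.075) lies near the median of 0.093.

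The mRNA-accession probes as a set were brighter on some of the DHEA arrays, which touches both genes. Their median level was −0.79 on DHEA 1, −0.98 on DHEA 2 and −1.20 on DHEA 3, against −1.17, −1.20 and −1.18 on control 1 to 3. DHEA 1 and DHEA 2 lay above the controls and DHEA 3 among them. The group means stood at −0.99 ± 0.20 with DHEA and −1.18 ± 0.02 without (SD, n = 3 each; two-sided exact permutation p = 0.3). Relative to that median, the Tm9sf1 difference was 0.29 (SE 0.13), and the Atg3 difference turned to −0.11 (SE 0.10). The Tm9sf1 groups did not overlap on this scale, and 7 of the 50 mRNA-accession probes, Tm9sf1 among them, were so separated, higher in DHEA. The difference of the negative-named mean was −0.22 on this scale (two-sided exact permutation p = 0.1). The part of the shift of the mRNA-accession probes in the Tm9sf1 difference was not tested beyond that.

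All arrays shared 1 slide, so position on it could be followed. Within slide column 1, the Tm9sf1 level was 0.75 higher on DHEA 2 than on control 1, and within column 2 it was 0.29 higher on DHEA 3 than on control 2. Within slide row 1, DHEA 1 exceeded the mean of the 3 control arrays by 0.47. Every DHEA array lay above every control array, so each of these differences could only be positive, and their direction adds no support. The size differed 2.63 times between the columns, each a single pair of arrays. The same Atg3 differences were 0.044, 0.075 and 0.19. Row 2 held no control array, so row and treatment are nearly confounded.

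With DHEA 3 and control 1 both left out, the Tm9sf1 difference was 0.50 and the Atg3 difference 0.17. With any 1 array left out, Tm9sf1 ran from 0.40 (without DHEA 2) to 0.55 (without DHEA 3), and Atg3 from 0.0064 (without control 2) to 0.14 (without DHEA 3). The Atg3 value is so near 0 that it was also 0.015 without DHEA 1. With all arrays, it was 0.00039 when median intensity without background subtraction was used.

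**Figure D4:**
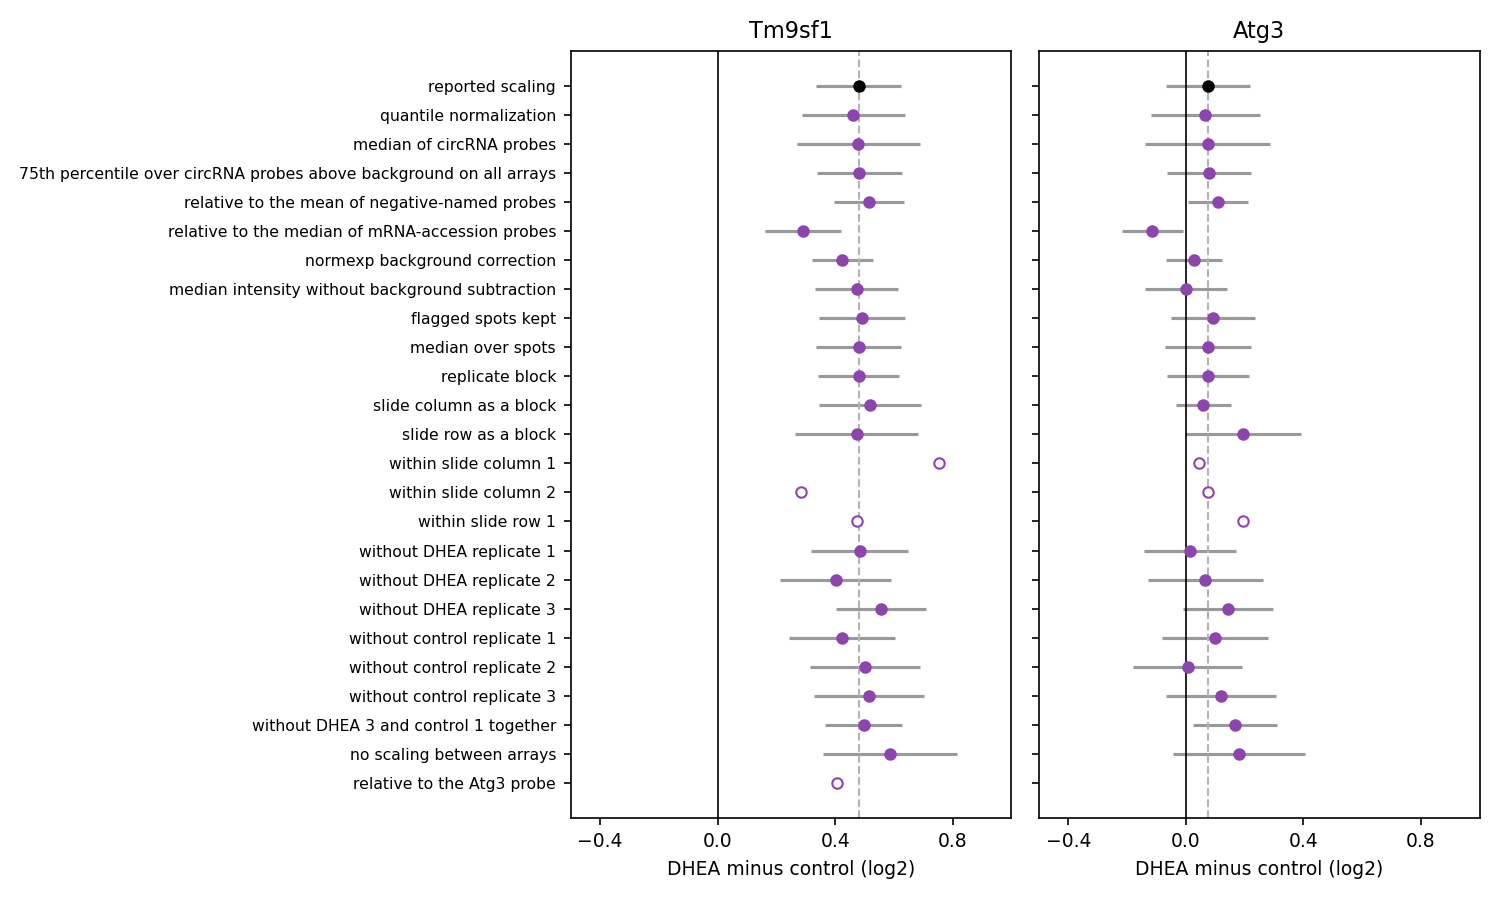
DHEA minus control difference in log2 level of the Tm9sf1 and Atg3 probes under the reported scaling (black) and each alternative (purple), with SE bars from limma; open points have no SE. The dashed line marks the reported value. Tm9sf1 stays between 0.29 and 0.75, and Atg3 lies between −0.11 and 0.19, on both sides of 0.

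The 44 mRNA-accession probes with a gene symbol were ranked by how closely their levels followed each gene over the 6 arrays, as the root mean square difference of mean-centred log2 levels. Nearest to Tm9sf1 were Mzb1, a chaperone of antibody-secreting cells (0.075), Carhsp1, a small RNA-binding protein (0.075), and Acaa2, a thiolase of mitochondrial fatty acid oxidation (0.094). Atg3 was 17th of 43 from Tm9sf1 (0.24). The DHEA minus control differences of the nearest probes were 0.47 for Mzb1, 0.53 for Carhsp1 and 0.32 for Acaa2. Because these probes were picked for following Tm9sf1 over the same 6 arrays, a like difference and groups that did not overlap came with the choice, and nothing is read from them.

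Nearest to Atg3 were Spats1 (0.079), E2f1, a transcription factor of the cell cycle (0.099), and Rab5a, a small GTPase of early endosomes (0.11). Their DHEA minus control differences, which the choice likewise ties to that of Atg3, were 0.091, −0.020 and 0.29. The closest negative-named probes followed the Atg3 levels about as closely, at 0.082 and 0.084. The closest negative-named probe to Tm9sf1 stood at 0.16, farther than 9 of the 43 mRNA-accession probes compared. All these probes share arrays and scaling, and 6 arrays give a weak ranking.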

How the data were processed

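Per the file headers, Agilent Feature Extraction 11.0.1.1 made the deposited 1-colour intensity files, with a background-subtracted processed intensity and a median intensity per spot. Per the labels' protocols, RNA was digested with RNase R and labelled by random priming. Limma is named without a version in the submitters' processing notes. The series table deposited by the authors has rows for circRNA probes only and was not used. Spots flagged as non-uniform or population outliers were left out, log2 processed intensity was averaged over the spots of a probe, and the array's 75th percentile over 14236 circRNA probes was subtracted. The 50 mRNA-accession probes were fitted with limma 3.58.1 in R 4.3.3 (lmFit, eBayes), a procedure checked on simulated data. The RefSeq gene table (GRCm38.p6) named 44 of 50; its coordinates were not used, since the array design is on mm9. Probe sequences were not used here. Genes named by likeness were the 3 nearest named probes per gene. The genes, lists and tests were chosen with earlier results of these data known. Alternatives covered scaling, background correction, spot flags, blocks and left-out arrays; those without DHEA 3 and control 1, without scaling and relative to Atg3 were added after seeing the data. The number of arrays limits precision.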

Additional observations from a re-analysis of the deposited data

Results flagged for a closer look

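Of the 900 spots of the negative-named probes, 94.3% were well above background, against 0 of 462 spots of Agilent's own negative controls. This is a signal in probes named as negatives, and the Atg3 probe lies within its range. Groups of 3 arrays are too small to be searched for outlying samples.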

How the results depend on the processing

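The Tm9sf1 difference (0.48) was positive under all 24 alternatives. That of Atg3 (0.075) was positive under 22 of 23, but only 0.00039 with median intensity without background subtraction. These counts add no support, since many of the alternatives are not independent. The Tm9sf1 groups did not overlap, so leaving out arrays or comparing within slide columns or row 1 could not change its sign. The slide row block gives the value within row 1 again. Relative to the median of the mRNA-accession probes, Tm9sf1 gave 0.29 and Atg3 −0.11, as that median was itself 0.19 higher with DHEA. Within slide columns 1 and 2, Tm9sf1 gave 0.75 and 0.29. With the replicate number as a block the differences were 0.48 and 0.075 and 0 probes passed. Each replicate number held 1 array per group, so this block could not change the differences. Over circRNA probes, arrays of equal number had deviations that correlated at 0.51, −0.32 and 0.097, so the numbers were not taken as pairs. With 1 array left out, Tm9sf1 ran from 0.40 to 0.55 and Atg3 from 0.0064 to 0.14. Normexp correction (offset 50) of median intensities, then quantile normalized, a setting that changes the intensity measure, the background correction and the scaling at once, put Tm9sf1 at 2.69 over the mean and 1.65 over the brightest of the negative-named probes (4.40 and 2.06 as reported), and Atg3 at 0.36 and −0.68 (1.20 and −1.14). Median intensity without background subtraction gave 3.34 for Tm9sf1 and 0.60 and −0.89 for Atg3. Both add an offset to every probe, which narrows such distances. The count of mRNA-accession probes passing (0) was 1 with median intensity and 0 to 4 with 1 array left out. The negative-named difference (−0.035) was 0.00091 with normexp and −0.083 to 0.011 with 1 array left out. It moved most, to −0.22, relative to the median of the mRNA-accession probes (two-sided exact permutation p = 0.1, the lowest this design allows). The difference of the log2 scaling value (0.11) was −0.0077 to 0.22 with 1 array left out. No cause was tested beyond these. Low signal over the negative-named probes limits Atg3.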
